A study of Mus musculus with 8 samples.

Results

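The transcripts of the wild type mouse embryo at the 2-cell stage were described from 4 of the 8 samples of the series, the samples labelled wild type. Each sample was a pool of 20 whole embryos, numbered here as pools 1 to 4. The other group, embryos mutant for Brg1, was set aside, and no contrast between genotypes was made. Total RNA of each pool was made into biotin-labelled cRNA with an Affymetrix assay for small samples and read on 1 expression array per pool. The design text calls the samples biological replicates. The strain, the age of the dams, the hour of collection and how the embryos were obtained were not given in the sources used here, and errors below measure the spread between these 4 pools. After 64 control probe sets were left out, 45037 of 45101 probe sets were ranked by their mean log2 signal, with signals under 1 set to 1. A gene was read from its brightest probe set, which gave 18193 genes.

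In the mouse, the egg enters fertilisation with a store of messenger RNA made while the oocyte grew, and it does so with transcription shut down. Between fertilisation and the end of the 2-cell stage much of that store is removed, chiefly by shortening of poly(A) tails, while the embryo's own genome is switched on. RNA taken at this stage is therefore a mixture of inherited and newly made transcripts, which an array does not tell apart.

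Genes were placed in 4 tiers. An abundant gene had a mean in the upper 5% of all ranked probe sets, which meant a signal of at least 1021. A moderate gene lay below that value but above a background bound on all 4 arrays. Control probe sets for bacterial transcripts, 27 in number, gave that bound as their 95th percentile, at a signal of 25.3, 31.0, 27.0 and 16.4 in pools 1 to 4. A gene at or under the bound on all 4 arrays was called near background, and the remaining genes were called mixed. By these rules 1526 genes were abundant (8.39% of all genes), 10274 were moderate (56.5%), 3495 were mixed (19.2%) and 2898 were near background (15.9%). A probe set's brightness also depends on how well its probes bind, so a rank is an approximate place and not an amount of RNA, and a low value need not mean a missing transcript.

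The bacterial bound was low. Of 51 marker genes of liver, neurons and muscle, tissues that a 2-cell embryo does not contain, 17 were above it on all 4 arrays, and the highest was Map2, a neuronal microtubule protein, at a mean log2 signal of 7.62 ± 0.41 (SD, n = 4). A stricter bound was set from 44 probe sets of olfactory receptor genes, at signals of 96.0 to 121. Above this bound on all 4 arrays stood 6252 genes (34.4% of all genes), among them every abundant gene and 4726 of the moderate genes, and 3 of the 51 markers. Signal between the 2 bounds is therefore not read here as expression.

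**Figure D1:**
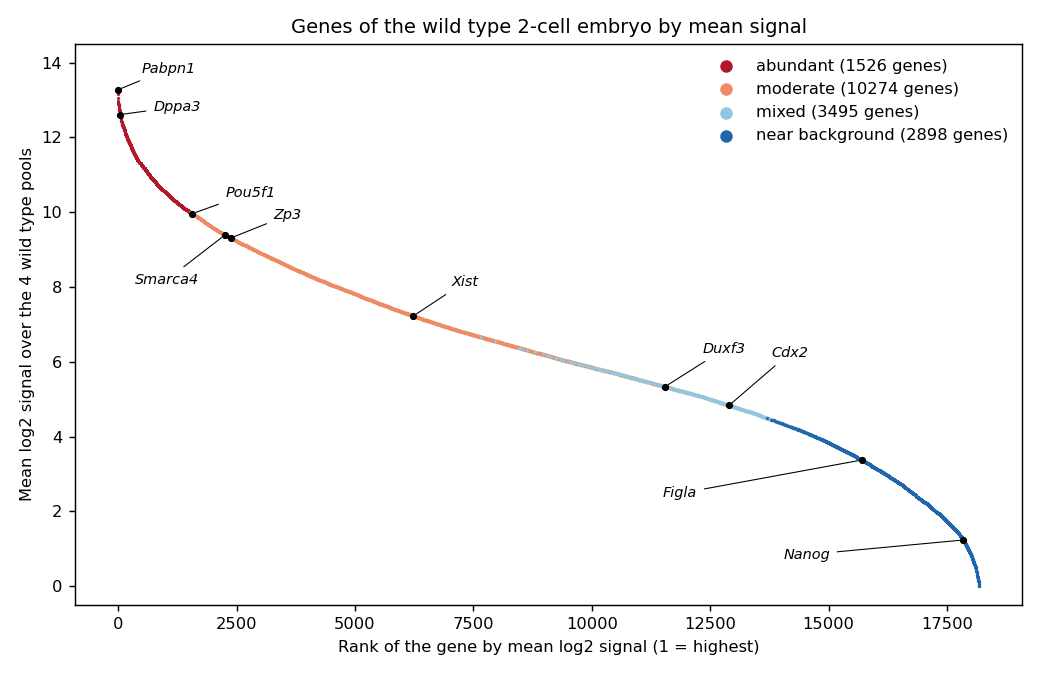
Mean log2 signal over the 4 wild type pools (vertical axis) of 18193 genes against their rank (horizontal axis), with the 4 tiers in colour. Dppa3 lies near the top, Pou5f1 and Zp3 lie at or under the lower edge of the abundant genes at 9.96 and 9.31, and Figla and Nanog lie in the near background tier.

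The arrays were scaled alike. The trimmed mean signal was 150 on each of the 4 arrays, the median signal ran from 36.3 to 45.2, and the probe sets above the bacterial bound made up 57.1% to 67.6% of the total. The 2252 abundant probe sets held 54.2% ± 1.87 (SD, n = 4) of the summed signal. Control probe sets for the 2 ends of the actin messenger gave 3′ over 5′ ratios of 17.3, 16.3, 17.0 and 21.1, with the 3′ end brighter on each array. Over the 22274 probe sets above the bound on all arrays, Pearson correlations of log2 signal between pools ran from 0.935 for pools 2 and 3 to 0.978 for pools 3 and 4. They are given as a description, across probe sets that are not independent.

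The labelled cell type was checked first against 4 markers. Dppa3 (Stella), a maternal protein that guards the methylation of the maternal genome after fertilisation, gave signals of 6104, 5969, 7204 and 5844 in pools 1 to 4 and held ranks 31 to 57 on the single arrays. Pou5f1 (Oct4), a transcription factor of pluripotent cells, gave 907, 775, 1137 and 1239.8. For Nlrp5 (Mater), an egg protein needed for development past the 2-cell stage, they were 998, 539.5, 1256 and 1261. The zona pellucida glycoprotein gene Zp3 gave 689, 683.5, 560 and 618. Dppa3 was thus abundant in every pool, and the other 3 genes were moderate at mean log2 signals of 9.96 ± 0.31 (Pou5f1), 9.91 ± 0.58 (Nlrp5) and 9.31 ± 0.14 (Zp3), each above both bounds in every pool. The labels' naming of 2-cell embryos met no contrary value in these markers.

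The brightest genes were a mixture of general cell machinery and genes of the egg. Pabpn1, which binds poly(A) tails in the nucleus, was first on each of the 4 arrays, with signals of 10234, 10521, 11063.5 and 8162. Bcl2l10, an antiapoptotic protein known from oocytes, gave 8078, 6831, 9990.1 and 7668. Spin1, a chromatin and spindle protein of the oocyte, gave 7987, 7599, 8568 and 6173. In all 3 genes pool 3 was highest, and in Pabpn1 and Spin1 pool 4 was lowest. That order was shared by most of the 30 highest genes, since pool 3 was highest in 26 of them and pool 4 lowest in 22. Over all 1526 abundant genes pool 3 was highest in 657, but pool 2 was lowest in 735 and pool 4 in 318. The summed signal of the hybridisation controls was highest in pool 3 (39260) and lowest in pool 4 (23828), and its part in the order of the 30 genes was not tested. Among the first 30 genes, with probe sets open to cross-hybridisation (suffix _x_at) passed over, stood also Zbed3, a protein of the egg's subcortical complex, the oocyte secreted proteins Oosp1 and Oosp3, the homeobox gene Obox5, the deadenylation factor Btg4, and Khdc1b. Cell cycle regulators were represented by Cdca8, a subunit of the chromosomal passenger complex, Pttg1 (securin), which holds back separase, and Cks2, a partner of cyclin-dependent kinases. Eif4g2 and Tpt1 serve translation and growth, Oaz1 restrains polyamine synthesis, Hmgcs1 makes a precursor of cholesterol, Tomm20 imports proteins into mitochondria, Map1lc3b coats autophagosomes and Dynll1 is a light chain of dynein.

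The order within these 30 genes is not resolved. Their mean log2 signals spanned 13.28 to 12.63, their SDs among pools ran from 0.10 to 0.35, and in 0 of the 29 neighbouring pairs was the gap larger than the larger of the 2 SDs. Btg4 had the largest spread of them, with signals of 6339, 5273, 9361 and 6840.1 and ranks from 6 to 86. At the other edge of the tier, Car9 and Rab2b lay just inside at log2 signals of 9.996 each, and Tmed5 and Gnpnat1 lay just outside at 9.995 and 9.994. Of the 1526 abundant genes, 1203 (78.8%) were in the upper 5% on every one of the 4 arrays and 323 were not.

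The promoters of several egg families were poor in CG dinucleotides. RefSeq promoter sequences (mouse build GRCm38.p6, 250 bases before to 50 after the start) were matched to 1274 of the 1526 abundant genes. A window is 300 bases long, and CG dinucleotides are in capitals. The 5 windows below were chosen from the 30 highest genes for their CG counts and stand near both ends of the range, so they are not typical, and Pttg1, Cdca8 and Tomm20 lay between them with 20, 21 and 24 CG. The first 3 below belong to abundant egg genes, namely Btg4 (chr9:51115751-51116050, plus strand), Obox5 (chr7:15750120-15750419, plus strand) and Oosp1 (chr19:11691002-11691301, minus strand), and hold 1, 1 and 5 CG. The last 2 belong to widely active genes, namely Tpt1 (chr14:75845006-75845305, plus strand) and Yap1, a coactivator of the Hippo pathway (chr9:8004547-8004846, minus strand), and hold 40 and 49 CG.
Btg4: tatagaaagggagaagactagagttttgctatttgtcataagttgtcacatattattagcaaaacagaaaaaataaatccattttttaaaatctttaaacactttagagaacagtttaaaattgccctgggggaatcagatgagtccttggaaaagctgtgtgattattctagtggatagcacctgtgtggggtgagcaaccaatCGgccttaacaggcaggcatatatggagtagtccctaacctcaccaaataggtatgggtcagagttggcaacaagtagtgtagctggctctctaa
Obox5: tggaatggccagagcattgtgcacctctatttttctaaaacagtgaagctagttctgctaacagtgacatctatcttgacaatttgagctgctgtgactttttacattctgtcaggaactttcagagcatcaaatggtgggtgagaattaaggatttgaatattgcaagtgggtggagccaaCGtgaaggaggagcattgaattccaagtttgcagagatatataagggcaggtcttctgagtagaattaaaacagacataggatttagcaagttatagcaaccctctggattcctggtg
Oosp1: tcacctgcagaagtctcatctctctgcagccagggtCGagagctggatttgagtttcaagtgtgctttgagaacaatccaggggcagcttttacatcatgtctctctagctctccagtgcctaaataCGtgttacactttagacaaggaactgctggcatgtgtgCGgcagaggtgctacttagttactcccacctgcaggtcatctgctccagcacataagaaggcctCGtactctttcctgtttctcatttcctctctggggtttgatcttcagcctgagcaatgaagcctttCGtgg
Tpt1: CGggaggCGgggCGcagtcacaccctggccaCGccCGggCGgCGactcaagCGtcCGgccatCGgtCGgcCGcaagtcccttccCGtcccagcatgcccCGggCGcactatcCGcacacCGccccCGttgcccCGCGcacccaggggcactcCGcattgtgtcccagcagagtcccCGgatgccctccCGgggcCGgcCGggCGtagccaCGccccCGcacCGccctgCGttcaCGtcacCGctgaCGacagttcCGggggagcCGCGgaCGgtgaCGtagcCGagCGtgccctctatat
Yap1: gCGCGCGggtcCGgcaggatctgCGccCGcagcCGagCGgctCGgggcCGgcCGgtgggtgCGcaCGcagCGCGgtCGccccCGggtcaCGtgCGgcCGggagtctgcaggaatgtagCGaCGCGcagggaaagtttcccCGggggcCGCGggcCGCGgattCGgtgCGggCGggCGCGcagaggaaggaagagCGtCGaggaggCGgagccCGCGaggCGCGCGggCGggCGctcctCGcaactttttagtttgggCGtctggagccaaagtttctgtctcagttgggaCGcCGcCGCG

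Across the tier, abundant genes had a median of 24 CG per window, and 11.4% of them had fewer than 10. The 8287 moderate genes with a window had a median of 19 and 22.8% with fewer than 10. Windows were found for 76.4% of the mixed and 76.7% of the near background genes, under the 80% required here, so no value is given for them. Over all genes with a window the share was 32.3%. Some families of the egg were CG-poor although many members were abundant. All 9 NLRP genes with a window and all 4 Obox genes with a window held fewer than 10 CG, as did 5 of 6 oogenesin and PRAME-like genes and 5 of 7 genes of the subcortical maternal complex. Other egg genes were not: among the maternal-effect genes 8 of 25 (32%) held fewer than 10 CG, with a median of 17, and among those of messenger storage 3 of 22 did. For comparison, 1 of 39 cytosolic ribosomal protein genes, 2 of 56 splicing genes, 3 of 68 mitotic genes and 1 of 22 BAF and PBAF subunit genes did. Marker lists of other tissues with windows for at least 80% of members were CG-poor too. Fewer than 10 CG were held by 15 of 15 liver, 15 of 17 muscle and 15 of 19 sperm and testis markers. The TATA motif TATAAA was searched on both strands (as TATAAA or TTTATA), and a gene was counted if any of its windows held it. It was found for 8.56% of the abundant and 9.55% of the moderate genes, beside 11.5% of all 14452 genes with a window. Counted per entry and not per gene, it stood in 13.6% of all 32851 RefSeq promoter entries. None of the 5 windows printed above held it. Members of a gene family share sequence by descent and are not independent.

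**Figure D2:**
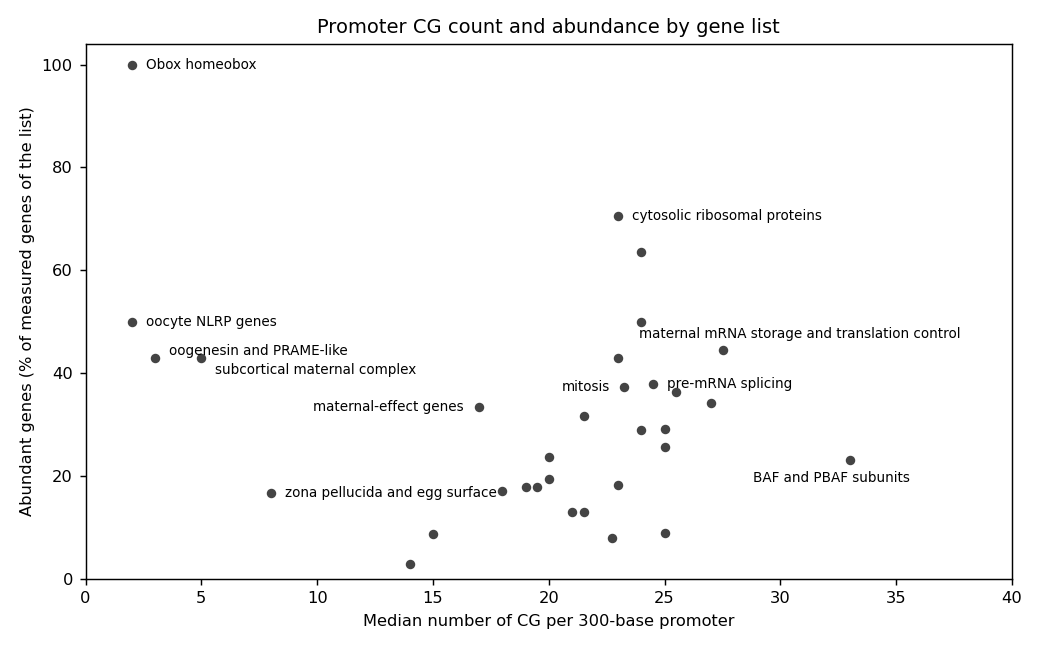
Each point is 1 gene list, with the median number of CG per 300-base promoter on the horizontal axis and the share of its measured genes that were abundant on the vertical axis, for the 32 lists with a promoter for at least 80% of members. The Obox, NLRP, oogenesin and subcortical complex lists lie at 5 CG or fewer, while the maternal-effect list lies at 17 CG and ribosomal proteins lie at 23 CG.

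Genes of the egg were sorted by role. The zona pellucida genes, whose proteins form the coat of the egg, were moderate. Signals of Zp2 were 753, 725, 938 and 939 in pools 1 to 4, and pools 3 and 4 stood above pools 1 and 2. Zp3 ran the other way, at 689, 683.5, 560 and 618. The list of zona and egg surface genes also held a few other genes of the egg. Of its 12 measured members, 2 were abundant (16.7%, beside 8.39% of all genes), 8 moderate, 1 mixed and 1 near background. Both abundant members encode enzymes inside the egg and not surface receptors, namely Wee2, an oocyte kinase that keeps cyclin-dependent kinase 1 inactive, at 12.16 ± 0.14 (log2 mean ± SD, n = 4), and the deubiquitinase Uchl1 at 10.40 ± 0.22. Cd81, a partner of the sperm-binding tetraspanin Cd9, was mixed at 4.35 ± 0.75.

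The subcortical maternal complex is a protein assembly under the egg membrane that embryos need to pass the first cleavages. All 7 of its measured genes were above the bacterial bound on all 4 arrays, and 3 were abundant (42.9%, beside 8.39% of all genes). Zbed3 gave 8653, 8875, 9906 and 6871. Nlrp4f gave 2807, 3289, 5065 and 4697, with pools 3 and 4 above the others. Ooep gave 1329, 807, 2601.5 and 2623, which is a spread of 0.82 log2 units and one of the largest of any abundant gene. Padi6 was steadier at 386, 462, 491 and 454, and Khdc3 ran the other way at 174, 142, 101.5 and 78.2.

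NLRP genes, a family of which a large branch is expressed in oocytes, varied among the pools, with a median SD of 0.44 log2 units beside 0.30 over all genes above the bacterial bound. Of 10 measured, 5 were abundant (50%, beside 8.39% of all genes) and 5 moderate. Nlrp4a gave 2083, 1704, 3766 and 3308, and Nlrp4e gave 1502, 1475, 2245 and 2643. In both genes pools 3 and 4 lay above pools 1 and 2 without overlap. The median deviation of the 10 genes from their own means was -0.33, -0.48, 0.39 and 0.32 log2 units in pools 1 to 4. Over the 11800 genes above the bacterial bound on all arrays it was 0.01, 0.08, -0.03 and -0.03. The summed signal of 20 granulosa and cumulus cell markers split the same pools the other way, at 2946, 2579.8, 2054 and 2201, and its part in these differences was not tested. Related probe sets can share target sequence, so these genes are not separate measurements in full.

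Oocyte factors that act on neighbouring cells and on the oocyte's own program lay in different tiers. Bmp15 and Gdf9, growth factors that the oocyte sends to its granulosa cells, were abundant. Bmp15 gave 1886, 2311, 2831.5 and 2708, and Gdf9 gave 1235, 1119, 1925 and 1808.5. Foxo3, which holds oocytes dormant in the ovary, was abundant at 10.68 ± 0.25. Sohlh1, a factor of early oocytes, was moderate at 5.98 ± 0.31, which is under the olfactory receptor bound. Figla, the factor that drives zona genes in growing oocytes, gave 2.4, 30.9, 14.8 and 10.5 and was near background on its single probe set. Of the 14 genes of this group, 5 were abundant (35.7%, beside 8.39% of all genes), 8 moderate and 1 near background. Above the olfactory receptor bound on all 4 arrays were 9 of the 14, beside 34.4% of all genes.

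Maternal-effect genes are those whose product in the egg decides whether the embryo develops. All 30 measured genes of this list were above the bacterial bound on all 4 arrays and 26 above the olfactory receptor bound, and 10 were abundant. Over all genes, 8.39% were abundant and 34.4% were above the olfactory receptor bound on all 4 arrays. Besides Zbed3 and Dppa3 the highest was Elavl2, an RNA-binding protein, with signals of 4022, 3983.5, 4002 and 3605 and an SD of 0.08 log2 units. The lowest were the demethylation enzyme gene Tet3, at 98.3, 56.2, 132 and 71.0, and the oocyte linker histone gene H1f8, at 59.5, 49.1, 109 and 105. Both ranges crossed the olfactory receptor bound.

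**Figure D3:**
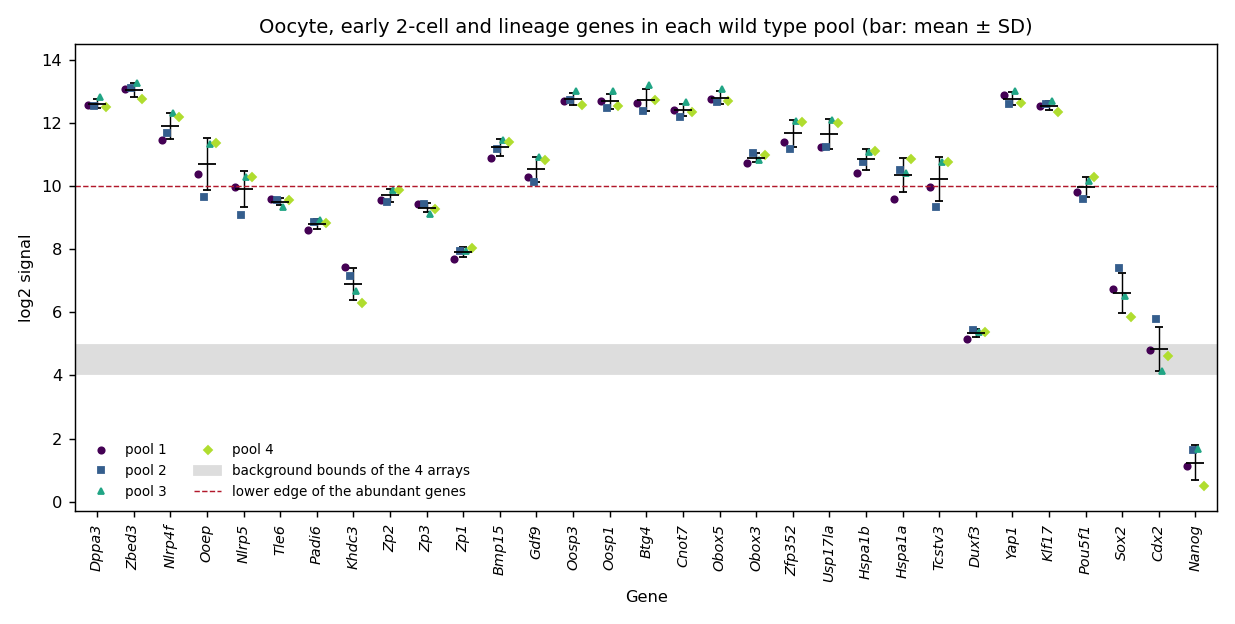
log2 signal in each of the 4 pools (symbols) with mean and SD (bar) for 31 genes of the oocyte, the early 2-cell embryo and the first lineages. The grey band spans the 4 bacterial bounds and the dashed line marks the lower edge of the abundant genes. Dppa3 and the Obox genes are abundant in all pools, Ooep and Nlrp5 spread widely, and Nanog lies under the band.

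Genes for the removal of maternal messengers were abundant in 25.6% of cases and those for their storage in 44.4%. The share was 26.8% over the genes of all function lists and 8.39% over all genes. Btg4, described above, links the CCR4-NOT deadenylase to translation factors in the egg. The catalytic subunit genes Cnot7 and Cnot6l gave 5422, 4682, 6486 and 5195 (Cnot7) and 4934, 4173, 5944 and 5013 (Cnot6l), with pool 3 highest and pool 2 lowest in both. Of 43 genes of deadenylation and decay, 11 were abundant, 31 moderate and 1, Dcp1b, a cofactor of decapping, mixed. Among 27 genes of messenger storage and translation control, 12 were abundant, led by Lsm14a, a protein of P-bodies, at 12.30 ± 0.12, and by Elavl2 and Ybx1. Mos, the kinase that arrests the egg at the second meiotic metaphase, gave 9.4, 10.3, 9.0 and 5.4 and was near background in every pool. Mos was read from a single probe set.

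Transcripts known from the burst of genome activation at the 2-cell stage were high. Of 18 measured genes of the early 2-cell list, 10 (55.6%) were abundant and 8 moderate. The abundant share was 8.39% over all genes and 26.8% over the genes of all function lists. Inherited and newly made transcripts are not told apart in these values. Zfp352, a zinc finger gene, gave 2722, 2315, 4236 and 4179.6, and Usp17la, a deubiquitinase gene, gave 2417, 2402, 4342 and 4117. In both, pools 3 and 4 lay above pools 1 and 2 without overlap. Rfpl4, a RING finger gene of germ cells and early embryos, gave 2909, 2097, 3374 and 3218. Duxf3 (Dux), a transcription factor gene that is active briefly at the start of the stage, gave 35.7, 43.7, 41.1 and 41.6, above the bacterial bound but under the olfactory receptor bound in every pool. Genes of the Zscan4 family had no probe set with 1 symbol and were not analysed here.

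The Obox homeobox genes, a family of the mouse egg and cleavage embryo, were all abundant, beside 8.39% of all genes. Obox5 gave 6884, 6509.5, 8711 and 6650.5. Obox6 gave 2790.0, 2629.6, 2339 and 2140.1, and Obox3 gave 1700.5, 2127.5, 1833 and 2024. The 5 measured members, with Obox2 and Crxos, had a median SD of 0.17 log2 units, beside 0.22 for all abundant genes. Obox2 was more variable, with an SD of 0.39 and signals of 2387, 1827, 3435 and 2819.8. Oogenesin and PRAME-like genes, another family of the egg, were abundant in 3 of 7 cases (42.9%). These were Oog3 at 12.53 ± 0.14, Pramel7 at 11.40 ± 0.22 and Pramel6 at 10.63 ± 0.19. Obox2 and Oog3 were read from probe sets open to cross-hybridisation (suffix _x_at).

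Pluripotency and lineage factors spanned the whole scale. Yap1 gave 7503, 6141, 8259 and 6277, and Klf17, which is known from oocytes and cleaving embryos, gave 5975, 6173.5, 6614 and 5253.5. Dppa2, which opens chromatin of early embryonic genes, was abundant at 11.11 ± 0.25. Of 36 measured genes, 6 were abundant (16.7%, beside 8.39% of all genes), 23 moderate, 3 mixed and 4 near background. Nanog, a factor of the later inner cell mass, gave 2.2, 3.1, 3.2 and 1.4, and Tdgf1, a coreceptor of Nodal, ran from 3.2 to 22.5. Both were under the bound in all pools, each on a single probe set. For 13 of the 29 members above the bacterial bound, the olfactory receptor bound was not passed on all arrays.

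Translation was the most strongly represented of the large groups. Of 44 measured cytosolic ribosomal protein genes, 31 were abundant (70.5%, beside 8.39% of all genes), 11 moderate, 1 mixed and 1 near background. Rps29 gave 7731, 8392, 6609.6 and 5993, Rps2 gave 5722, 4959.5, 5047 and 4504.5, and Rps28 gave 5499, 5000.4, 4690.0 and 4572. In Rps29 and Rps28 pools 1 and 2 lay above pools 3 and 4, and in Rps2 pool 3 lay above pool 2. Rps29 and Rps2 were read from probe sets open to cross-hybridisation (suffix _x_at). Over the 42 members above the bacterial bound on all arrays the median deviation was 0.25, 0.16, -0.19 and -0.21 log2 units in pools 1 to 4. Ribosome biogenesis genes showed 0.18, 0.13, -0.14 and -0.18. The 2 exceptions at the bottom, Rps16 at 0.5 to 0.9 and Rpl14 at 0.9 to 32.2, each rested on a single probe set. Of 45 translation factors 22 were abundant and 23 moderate, among them Eif4g2 (12.84 ± 0.22), the elongation factor Eef1a1 (12.53 ± 0.13) and Eif5a (12.38 ± 0.13).

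Genes of transcription, splicing and chromatin lay mostly in the moderate tier, as did mitotic genes and 56.5% of all genes. Of 76 genes of RNA polymerase II, its general factors and Mediator, 22 were abundant (28.9%, beside 8.39% of all genes) and 54 moderate. Polr2c, a subunit of the polymerase, gave 4123, 2940.1, 5459.6 and 4023. Taf10, a subunit of TFIID, gave 3808, 2820.5, 3214 and 3706. Splicing factors were abundant in 25 of 66 cases, with Hnrnpc at 12.41 ± 0.16 and Sf1 at 12.29 ± 0.14. Eif4a3 of the exon junction complex, read from a single probe set, was near background at 1.8 to 6.6.

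The BAF and PBAF complexes slide and evict nucleosomes, and their ATPase Smarca4 (Brg1) is the gene altered in the other group of the series. In the wild type pools Smarca4 gave 796, 632, 612 and 661, a moderate value of 9.39 ± 0.17. Smarcd2 gave 6119, 5631, 6172.5 and 5433, Arid2 gave 2443, 2449.7, 3025 and 2938, and Bcl7c gave 2196, 1919, 2591.5 and 2596. In all, 6 of 26 subunits (23.1%) were abundant, 18 moderate, 1 mixed and 1 near background, the last being Smarcd3 at 0.9 to 14.7. The abundant share was 8.39% over all genes and 26.8% over the genes of all function lists. Actl6b, a subunit known from neurons, was mixed at 4.56 ± 0.38. Other remodellers were abundant in 10 of 34 cases, with the histone chaperone Rbbp7 at 12.69 ± 0.16 and the ISWI ATPase Smarca5 at 11.67 ± 0.23. Of 64 histone and DNA modifying enzymes 13 were abundant, led by the Polycomb genes Suz12 (12.39 ± 0.17) and Ezh2 (11.96 ± 0.17), and Ehmt2 and Hdac8 were near background.

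Cell division genes differed from list to list. The abundant share was 37.3% for mitosis, 31.6% for replication and 11.1% for G1 regulators. It was 37.9% for splicing and 8.39% over all genes. Of 83 mitotic genes 31 were abundant, 48 moderate, 2 mixed and 2 near background. Cdca8 gave 7456, 7477, 8574 and 6031, Pttg1 gave 7668, 6309, 8589.7 and 5369.6, and Incenp, another passenger protein, gave 5106, 4498.5, 4956 and 4821. Incenp was steady at an SD of 0.08 log2 units. Rec8, the cohesin of meiosis, gave 4.8, 2.0, 3.9 and 3.0 and was near background on its single probe set. Replication genes were abundant in 18 of 57 cases, with Dbf4, the activator of an origin-firing kinase, at 12.07 ± 0.27, and Cdt1, which loads the helicase, at 11.70 ± 0.15. The list of G1 regulators, which holds cyclins, kinases, their inhibitors, E2F factors and retinoblastoma proteins, was abundant in 3 of 27 cases. These were the E2F factor E2f5, the cyclin Ccne1 and the retinoblastoma gene Rb1.

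Housekeeping and stress genes were graded, beside abundant shares of 8.39% over all genes and 26.8% over the genes of all function lists. Chaperones were abundant in 16 of 32 cases and near background in 0, with Cct3 at 12.35 ± 0.26 and Dnaja2 at 11.84 ± 0.11. Of 73 genes of oxidative phosphorylation 13 were abundant and 56 moderate, and Cox5a of the cytochrome oxidase gave 4791.5, 5374.5, 5585 and 4793. Glycolysis was abundant in 2 of 23 cases, Ldhb at 12.24 ± 0.39 and Pgk1 at 11.94 ± 0.21, and the muscle and nerve isozymes Pgam2 and Eno2 were near background. Of 31 genes of pyruvate use and the citric acid cycle, the route by which the early mouse embryo gains its energy, 4 were abundant, led by citrate synthase Cs (5051, 3762, 5421 and 4967.5). Nuclear pore and transport genes were abundant in 14 of 41 cases, and their highest, Nup62, gave 7206, 7106, 7999 and 5835.

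Signalling, transport and imprinting held few abundant genes. Signalling receptors and ligands had 2 abundant genes of 54, and these were the oocyte's own Bmp15 and Gdf9. The list of glucose and amino acid transporters had 1 of 28, and that was Slc25a5, the mitochondrial carrier of adenine nucleotides, at 10.33 ± 0.12. The highest transporter of an amino acid was the moderate gene Slc6a9 at 9.91 ± 0.24. Imprinted genes had 1 of 35, Gnas, with signals of 897, 606, 1512 and 1588, and 4 near background, among them Mkrn3 at 0.3 to 2.1. For the small RNA pathway it was 2 of 25, Drosha at 11.19 ± 0.11 and the piRNA protein Mael at 10.64 ± 0.20. These 4 lists lay under the 8.39% of all genes, but the small RNA pathway lay next to that share, as did glycolysis (8.70%) and DNA repair (8.82%) just above it.

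**Figure D4:**
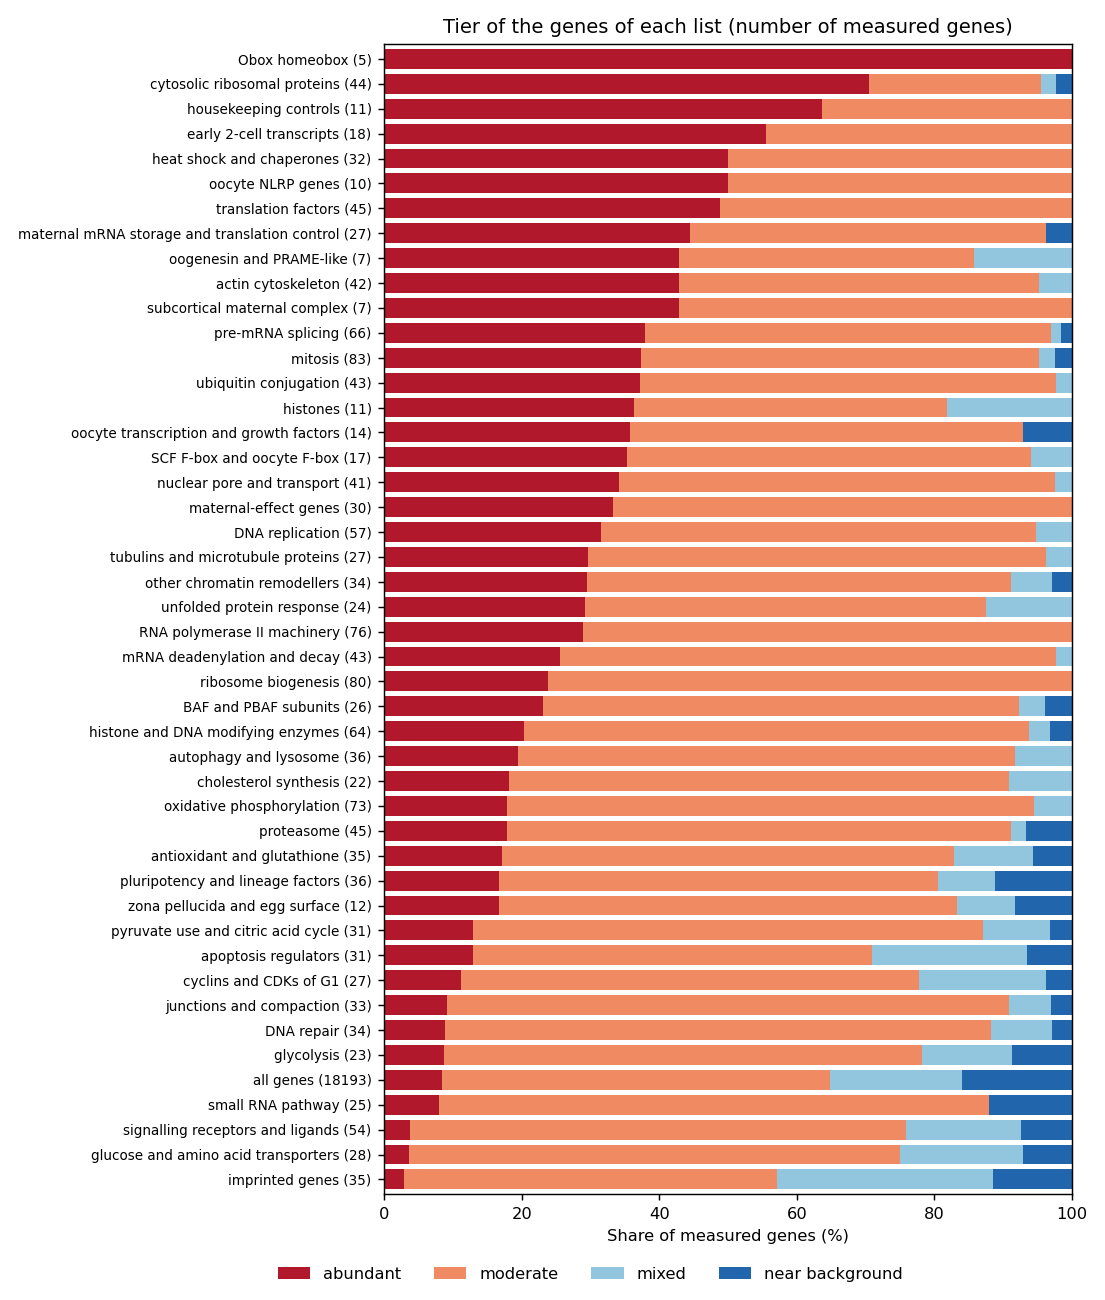
Share of the measured genes of each of 45 function lists in each tier (colours), ordered by the abundant share, with all 18193 genes for reference and the number of measured genes in brackets. The Obox list is wholly abundant, 31 of 44 ribosomal protein genes are abundant, and 4 lists lie under all genes.

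The lists hold well-studied genes, and 401 of their 1497 different measured genes (26.8%) were abundant. They carried more probe sets per gene, 2.37 on average beside 1.92 over all genes, and a gene is read from its brightest probe set. The share of abundant genes was 4.13% among genes with 1 probe set and 20.3% among genes with 4 or more. Among genes with 1 probe set, 98 of 498 listed genes (19.7%) were abundant. Where a gene had several probe sets they often disagreed, and the median gap between the brightest and the dimmest was 2.75 log2 units over 9010 genes. Over the 1147 abundant genes with several probe sets it was 4.56 log2 units, and in 67.7% of them it was above 3. When a gene was given the mean of its probe sets instead, 616 genes were abundant.

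Markers of other cells were mostly low, beside 8.39% of all genes abundant and 34.4% above the olfactory receptor bound. Of 20 markers of granulosa and cumulus cells, which surround the egg, 1 was abundant, 6 moderate, 10 mixed and 3 near background, and 2 were above the olfactory receptor bound. Amhr2, the receptor of anti-Müllerian hormone, gave 2018, 1689, 1353.5 and 1457, and Foxl2 gave 167, 169, 146 and 137. The summed signal of the 20 ran from 2054 to 2946, most of it from Amhr2. Amhr2 was read from a probe set open to cross-hybridisation (suffix _x_at). Oviduct epithelium had 0 abundant of 15, and the summed signal was 1030.5, 1074, 750.1 and 727 in pools 1 to 4. Blood had 0 of 19 (summed signal 853 to 1107), and sperm and testis had 1 of 22 (2023 to 2279.5), which was Odf2, also a centriole protein, at 10.31 ± 0.09. Above the olfactory receptor bound on all 4 arrays were 1 of the oviduct markers, Epcam at 8.35 ± 0.33, 2 of blood, Csf1r at 7.86 ± 0.53 and Laptm5 at 7.18 ± 0.11, and 2 of sperm and testis, Odf2 and Ldhc at 8.01 ± 0.61. Fshr, Cyp11a1, Prm1 and Hba-a1 were each under that bound on all 4 arrays. In 4 of the 7 marker lists (granulosa, oviduct, sperm and testis, liver) the summed signal of pools 1 and 2 lay above that of pools 3 and 4 without overlap, and in the other 3 lists the pools overlapped. The median signal of all ranked probe sets split likewise, at 38.9, 45.2, 36.3 and 36.7 in pools 1 to 4. Of the 17 liver markers, 0 were above the olfactory receptor bound on all 4 arrays. The part of the array-wide signal in these splits was not tested.

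The spread among pools was smaller for abundant than for lower genes. The median SD of log2 signal was 0.22 for abundant genes, 0.32 for moderate genes, 0.76 for mixed genes and 0.74 for genes near background. Mixed genes cross the bound by definition, so their spread is in part set by the rule, and after centring on the array median the first 2 values were 0.29 and 0.32. Only 1 abundant gene, Scml2, a Polycomb-related gene of the X chromosome, had an SD above 1 log2 unit, with signals of 530.0, 600.0, 2039 and 1961. The other 9 of the 10 most variable abundant genes were Phf5a, Ubfd1, Umodl1, Ooep, Atp6v1d, Gm11487, Cdc5l, Bex6 and Cenpf. Cenpf, a kinetochore protein, gave 1162, 1009, 2738 and 2485, and Cdc5l, a splicing factor, gave 1229, 1127, 3199 and 2949. In 7 of the 10, pools 3 and 4 both lay above pools 1 and 2, and in the other 3, Ubfd1, Atp6v1d and Bex6, both lay below. How often such a split occurs among all abundant genes was not counted. Ubfd1, for example, gave 1252, 2290.1, 722 and 597.

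At the other extreme were genes that barely moved. Strbp gave 1653, 1669, 1698 and 1676, Rpia, an enzyme of the pentose phosphate pathway, gave 1303.5, 1318, 1286 and 1337, and Akr1a1, an aldehyde reductase, gave 3014.5, 3114.5, 3114 and 3108. Their SDs were 0.02 log2 units. Cnppd1 and Arhgap21 stood with them.

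Some moderate genes differed far more. Of 11800 genes above the bacterial bound on all arrays, 92 had an SD above 1 log2 unit, 91 of them moderate. The genes that follow were named after their values were seen. Olfr976, an olfactory receptor gene, gave 37.7, 133, 1323 and 1404, Tex15, a germ cell gene, gave 183, 179, 1541 and 1239, and Ighg3, an immunoglobulin constant gene, gave 54.2, 43.2, 861 and 746. Srgn, a proteoglycan gene, gave 106, 375, 1323 and 1324. Rad9a, a gene of the DNA damage checkpoint, ran the other way and gave 234.5, 241, 58.8 and 18.1. In 51 of the 92 genes the 2 highest pools were 1 and 2, in 26 they were 3 and 4, and in the remaining 15 another pair. The same count was not made over all 11800 genes, so no base share stands beside these numbers. Pools 3 and 4 were also the best correlated pair, and the labels name nothing that pools 1 and 2 or pools 3 and 4 share. Outside these 92 genes, the mixed gene Bfsp1, a filament protein of the eye lens, gave 744.5, 481, 2.7 and 7.1.

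**Figure D5:**
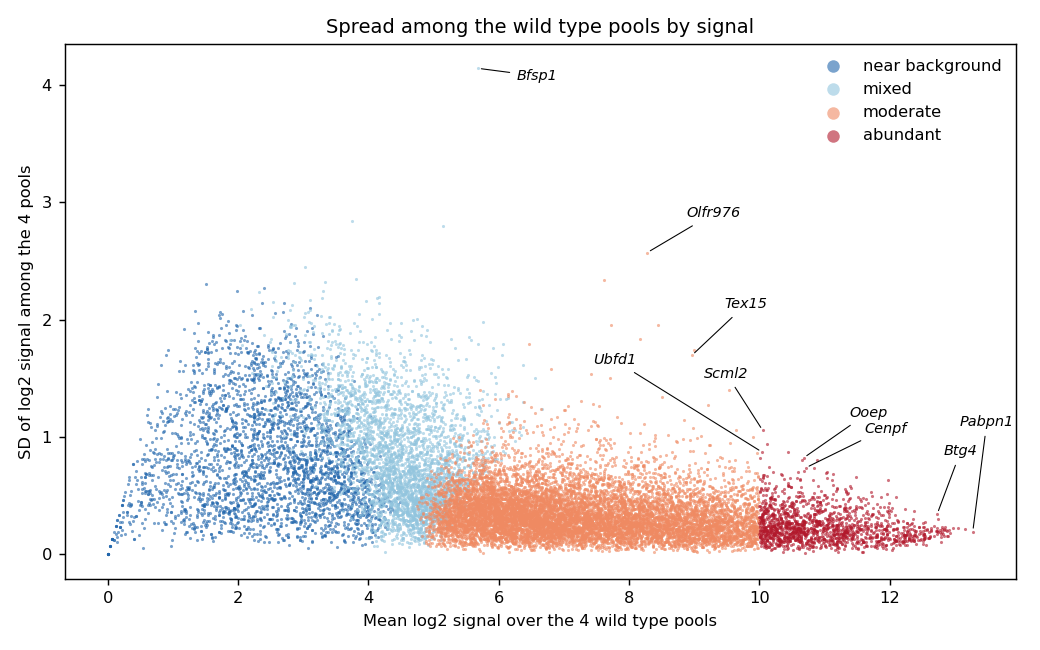
SD of log2 signal among the 4 pools (vertical axis) against the mean log2 signal (horizontal axis) for 18193 genes, coloured by tier. The median SD is 0.76 for mixed genes and 0.22 for abundant genes, and Olfr976, Tex15 and Bfsp1 stand far above genes of like signal.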

How the data were processed

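Total RNA from pools of 20 embryos was hybridised to 1 Affymetrix array per pool, per the labels' protocols. Each probe set has a deposited intensity, the MAS5 signal named in the submitters' processing notes, on a linear scale. Which version of MAS5 was run, and its settings, were not given in the sources used here. No further scaling was applied, as the trimmed mean was 150 on each array. With 4 arrays, their number limits the precision of every SD.

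The floor of 1 was applied before log2, and means and SDs were taken over the 4 wild type arrays (Python 3.11.15, pandas 2.3.3, numpy 2.4.6, with figures from matplotlib 3.10.9). The platform annotation paired 34945 probe sets with 1 gene symbol, 932 with several and 9160 with none, and only the first kind named a gene. Of 18193 genes, 18031 matched RefSeq (GRCm38.p6) and 0 symbols changed. The members, the 45 function lists and the 7 marker lists were chosen with earlier results of these data known. Genes named were the 4 markers, the first 30 genes (1 symbol, no _x_at probe set), the 3 highest and 2 lowest of each function list, the 10 most and 5 least variable abundant genes and the 2 highest of each marker list. Any other gene was named after its values were seen. Of the 1526 abundant genes, 187 (12.3%) were read from an _x_at probe set. Named genes read so include Wee2, Oog3, Obox2, Rps29, Rps2, Rbbp7, Incenp, Ccne1, Ldhb, Pgk1, Nup62, Slc25a5, Amhr2 and Tcl1b1. Their signal may hold that of related sequences. No groups were compared. Alternatives were quantile or median scaling, a pseudocount in place of the floor, other background bounds, other shares for the abundant tier, a gene's mean over its probe sets, no _x_at or _s_at probe sets, the median over arrays, and leaving out each pool.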

Additional observations from a re-analysis of the deposited data

Results flagged for a closer look

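In 8 of 159 values checked (151 genes named in the text and 8 array measures), 1 pool stood far from the other 3 by Dixon's test at its 95% critical value. Chance alone sets apart about 1 in 20 such groups, and the share here was 5.03%. The follicle-stimulating hormone receptor gene Fshr, a granulosa cell marker, read 18.3 in pool 3 and 68.4 to 71.3 in the others, all of them under the olfactory receptor bound. Elavl2 read 3605 in pool 4 against 3983.5 to 4021.7, and the adenine nucleotide carrier Slc25a5 read 1138.5 in pool 2 against 1325.8 to 1359.9. Suz12 read 6379.3 in pool 3 against 4985.2 to 5164.4, and Wee2 read 5299.2 in pool 3 against 4279.2 to 4418.7. Tmed5 read 1348.6 in pool 2 against 910.3 to 959.9. Hdac8 read 19.5 in pool 2 against 11.8 to 12.6, under the bacterial bound in each pool. Akr1a1, one of the least variable abundant genes, read 3014.5 in pool 1 against 3107.6 to 3114.5.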

How the results depend on the processing

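The number of abundant genes, 1526, became 611 when the tier was the upper 2% and 2980 when it was the upper 10%, and 616 when the probe sets of a gene were averaged. Abundant genes among those on the function lists, 401, became 188, 688 and 173 under the same 3 settings. With the bound taken from olfactory receptor probe sets, genes above background on all 4 arrays fell from 11800 to 6252 and genes near background rose from 2898 to 9613. The median SD among pools was 0.218 for abundant genes and became 0.291 after centring on the array median. For moderate genes it was 0.316, and it became 0.282 with the pseudocount and 0.271 with the olfactory receptor bound. Leaving out each pool in turn gave medians of 0.173 to 0.231 for abundant and 0.259 to 0.315 for moderate genes, lowest without pool 2 in both. The cause of these shifts was not tested. Without _x_at and _s_at probe sets 1265 of the 1526 abundant genes (82.9%) stayed abundant, and quantile normalization kept 1523. The median of 24 CG per promoter window of abundant genes became 25 without those probe sets. Of 151 genes named, 72 moved by more than their SD when probe sets were averaged. Without _x_at and _s_at probe sets 25 moved and 118 did not. No paired analysis was possible because no groups were compared.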

Other observations

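Some families and neighbours that the lists did not cover were noticed after their values were seen. On chromosome 12 a run of 5 adjacent measured genes (order from RefSeq, GRCm38.p6) was abundant, Glrx5 followed by Tcl1b1, Tcl1b3, Tcl1b4 and Tcl1, the last 4 being a family that includes the Akt cofactor Tcl1. Tcl1 gave signals of 5322, 3773, 6943 and 5771 in pools 1 to 4, and Tcl1b1 gave 6137, 4805.5, 7582.5 and 5597. A run of 4 on chromosome 7 was Obox2, Obox3, Obox5 and Obox6, and a run of 4 on chromosome 5 was Gtf3c2, Eif2b4, Snx17 and Zfp513.

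Symbols were also grouped by their stem, which gave 564 stems. In 15 of them at least 50% of the measured genes were abundant, beside 8.39% of all genes. These were Csnk (6 of 8, casein kinases), Tent (4 of 6), Mllt (3 of 5), Pcgf (3 of 5), Rpl (14 of 24), Cdca (4 of 7), Ncoa (4 of 7), Rps (16 of 30), Cnot (5 of 10, deadenylase), Mcm (5 of 10, mostly replicative helicase), Sf (5 of 10), and Arf, Kpna, Larp and Orc (3 of 6 each). In 31 stems at least 50% were near background, beside 15.9% of all genes, and those of 20 or more genes were Vmn (19 of 32, pheromone receptors), Pcdhb (11 of 22), Defb (11 of 20, defensins) and Klk (10 of 20). Other stems known from differentiated tissues were seldom near background, with 0 of 16 Syt genes (synaptotagmins), 0 of 11 Tlr genes (innate immune receptors) and 2 of 24 Cldn genes (claudins). Their median log2 signals of 5.45, 5.36 and 5.48 lay under the olfactory receptor bound (log2 6.58 to 6.92), and 0 of these genes were abundant. Signal under that bound is not read here as expression. A stem is a spelling and not always a family.

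Of 39 measured olfactory receptor genes 1 was abundant, Olfr288, with steady signals of 985, 974, 1051 and 1141.5.

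The share of abundant genes was similar over the chromosomes, from 6.86% on chromosome 7 to 10.6% on chromosome 12, with 8.43% on the X chromosome, and 0 of 9 genes on the Y chromosome were abundant.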
